A study of Mus musculus with 12 samples.

Results

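The 4 aquaporin genes described here, Aqp1, Aqp4, Aqp7 and Aqp11, are the water and glycerol channels taken as the cardiac members of their family, and they are 4 of the 12 aquaporin genes and of 55401 genes in the count table. They were chosen by gene symbol, and Aqp4 was chosen from these same data for its 12.2-fold fall after pressure overload in wild type mice and for a called interaction between genotype and surgery. All values of Aqp4 between groups are therefore given as a description with no test, while Aqp1, Aqp7 and Aqp11 were tested. The samples were 12 RNA sequencing libraries of mouse left ventricle, from wild type mice and from mice with the Prkca T497A allele. Each genotype had 3 libraries after sham surgery and 3 after transverse aortic constriction, or TAC, which narrows the aorta and loads the left ventricle with pressure. The T497A allele replaces a threonine of protein kinase C alpha, a lipid- and calcium-activated kinase, with alanine, and the labels do not say whether the mice were homozygous. Surgery was done with a 27-gauge needle when the mice were 10 weeks old, and the tissue was collected 5 weeks later, at 15 weeks, in all 4 groups. The title of the series names CRISPR base editing, but neither the number of founder lines nor the makeup of single libraries (1 animal or a pool) is given in the sources used here.

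Aquaporins are membrane channels built as tetramers, in which each subunit has its own pore. The classical ones, such as Aqp1 and Aqp4, pass water along osmotic gradients. Aquaglyceroporins such as Aqp7 also pass glycerol, and Aqp11 belongs to a distant branch found in membranes inside the cell. In the heart Aqp1 is known from capillary endothelium and from cardiomyocytes, Aqp4 from the cardiomyocyte membrane of the mouse, and Aqp7 as an entry route for glycerol, which the myocardium can burn as a fuel. Aqp4 is also abundant in astrocytes and in fast skeletal muscle fibres, where syntrophin and the dystrophin complex hold it at the membrane.

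The genes were placed on GRCm38 with the GENCODE annotation. Aqp1 lies on the plus strand of chromosome 6 (chr6:55336432-55348555) and Aqp7 on the minus strand of chromosome 4 (chr4:41033074-41048139). Aqp11 lies on the minus strand of chromosome 7 (chr7:97724006-97738289). Aqp4, on the minus strand of chromosome 18 (chr18:15389496-15410982), has 11 annotated transcripts, whose reads are summed in 1 count. The counts are over whole genes, so the transcripts of Aqp4 were not told apart. Aqp4 overlaps the antisense gene Gm50048, and whether the counting used strand is not given. Gm50048 held at most 2 counts in any library. The other members overlap no annotated gene.

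Totals ran from 36862004 to 46898344 counts per library. Levels are given as CPM, a gene's counts relative to the library's total after scaling with TMM factors. Mitochondrial genes took 19.6 to 20.9% of the counts in wild type TAC and 24.6 to 30.9% in the other groups. The labels give cardiomyocyte as the cell type, but the protocol describes extraction from tissue with no sorting step, and all 12 listed cardiomyocyte markers were expressed. Markers of other cell types were present too, so the libraries describe ventricle tissue. Among counts of 10 to 200, 65.1 to 67.4% were even numbers. How the counting gave this excess is not given, and where reads enter in pairs low counts vary more than the same number of independent reads would. Among the members Aqp11 is the one most exposed to this, with even counts in 12 of 12 libraries and at most 64 counts in any of them. Aqp4 had even counts in 10 of 12 libraries, and Aqp2 and Aqp8, which are not members, each in 11 of 12. The labels do not say that the libraries come from separate animals, so the p-values cover only the spread from library to library, which may be technical.

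6 libraries held more than 1 CPM of Myh4, the fast myosin heavy chain of skeletal muscle: replicates 1 and 2 of wild type sham, of wild type TAC and of T497A sham. The number that each title carries is at most 82 in these 6 libraries and at least 137 in the other 6, which include all T497A TAC libraries. The labels do not say what the number stands for, and they give 1 batch date for all libraries. Since all T497A TAC libraries lie on 1 side of this split, comparisons with that group cannot be fully told apart from it. The split is given again beside Aqp4, which fast skeletal muscle also makes.

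Aqp1 was by far the most abundant aquaporin. Scaled to exon length, its mean over the 12 libraries was 89.6 CPM per kb, against 5.55 for Aqp7, 2.84 for Aqp8, 1.22 for Aqp4, 0.125 for Aqp2 and 0.0908 for Aqp11. Exon lengths were those of all annotated exons of a gene together, so the per-length level of a gene with long rare exons is set too low. Of the sum of these per-length levels over the family, Aqp1 made up 79.6 to 94.0% in every library. The 6 remaining aquaporin genes did not reach the count needed for a test. Mip had 9 counts in all 12 libraries together, Aqp5 10, Aqp3 16, Aqp9 20 and Aqp6 30. Aqp12 had 0 counts, which allows up to 0.00594 CPM over the 12 libraries together. This limit is 3 counts and covers counting error only.

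Aqp1, the constitutively open water channel, did not differ between groups by more than its replicates. In wild type sham it measured 321.8, 240.7 and 229.5 CPM, and in wild type TAC 149.4, 230.5 and 219.2. The T497A sham libraries measured 331.2, 153.2 and 251.8 CPM, and in T497A TAC 220.6, 195.2 and 281.1. The groups overlapped in all 4 pairwise comparisons, and T497A sham held both the highest and nearly the lowest library of the study. The group means ran in the order wild type sham (264.0 ± 50.4 CPM, SD, n = 3), T497A sham (245.4 ± 89.2), T497A TAC (232.3 ± 44.2) and wild type TAC (199.7 ± 43.9), and no neighbours in this order differed beyond their SD. The fitted log2 fold change after TAC was -0.40 ± 0.29 (SE) in wild type (edgeR adjusted p = 0.359, from its quasi-likelihood test with Benjamini-Hochberg adjustment) and -0.08 ± 0.29 in T497A (edgeR adjusted p = 0.948). T497A against wild type gave -0.11 ± 0.29 after sham (edgeR adjusted p = 1) and 0.22 ± 0.29 after TAC (edgeR adjusted p = 0.716), and the interaction was 0.32 ± 0.41 (edgeR adjusted p = 0.758). With these standard errors a change about as large as the replicate spread was not called, as in wild type TAC, and larger ones could also be missed.

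Capillary endothelium and red blood cells are known sources of Aqp1. The endothelial marker list changed little: 1 of its 14 tested genes was called, higher, in wild type TAC, where 12.3% of all tested genes were called higher. Its summed level was 1429 to 1546 CPM in wild type sham and 1465 to 1580 CPM in wild type TAC. Pecam1, the endothelial adhesion molecule, lay between 142.6 and 195.6 CPM over all libraries. Of the 9 erythrocyte markers, 4 were called higher in wild type TAC, against the same 12.3% of all tested genes. Their summed level was 139 to 199 CPM in wild type sham and 234 to 325 CPM in wild type TAC. The alpha globin gene Hba-a1 lay between 18.8 and 55.9 CPM. In bulk tissue, fewer cells of a type and less RNA per cell cannot be told apart.

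Aqp4, the water channel of the cardiomyocyte membrane, is the member chosen for its difference between groups. In wild type sham it measured 14.70, 8.89 and 13.13 CPM, and in wild type TAC 0.66, 1.71 and 0.65. The T497A sham libraries measured 15.95, 10.26 and 11.13 CPM, and in T497A TAC 5.09, 4.30 and 4.91. The sham groups shared 1 range, every T497A TAC library lay below every sham library, and every wild type TAC library lay below every T497A TAC library. The means were 12.4 ± 3.06 CPM (SD, n = 3) in T497A sham, 12.2 ± 3.01 in wild type sham, 4.77 ± 0.413 in T497A TAC and 1.01 ± 0.609 in wild type TAC. Aqp4 was chosen for differences between these groups, so nothing is read from their separation. Among all tested genes, groups did not overlap for 42.2% in wild type TAC against sham and 15.4% in T497A TAC against sham. Between the genotypes after TAC this share was 28%.

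**Figure D1:**
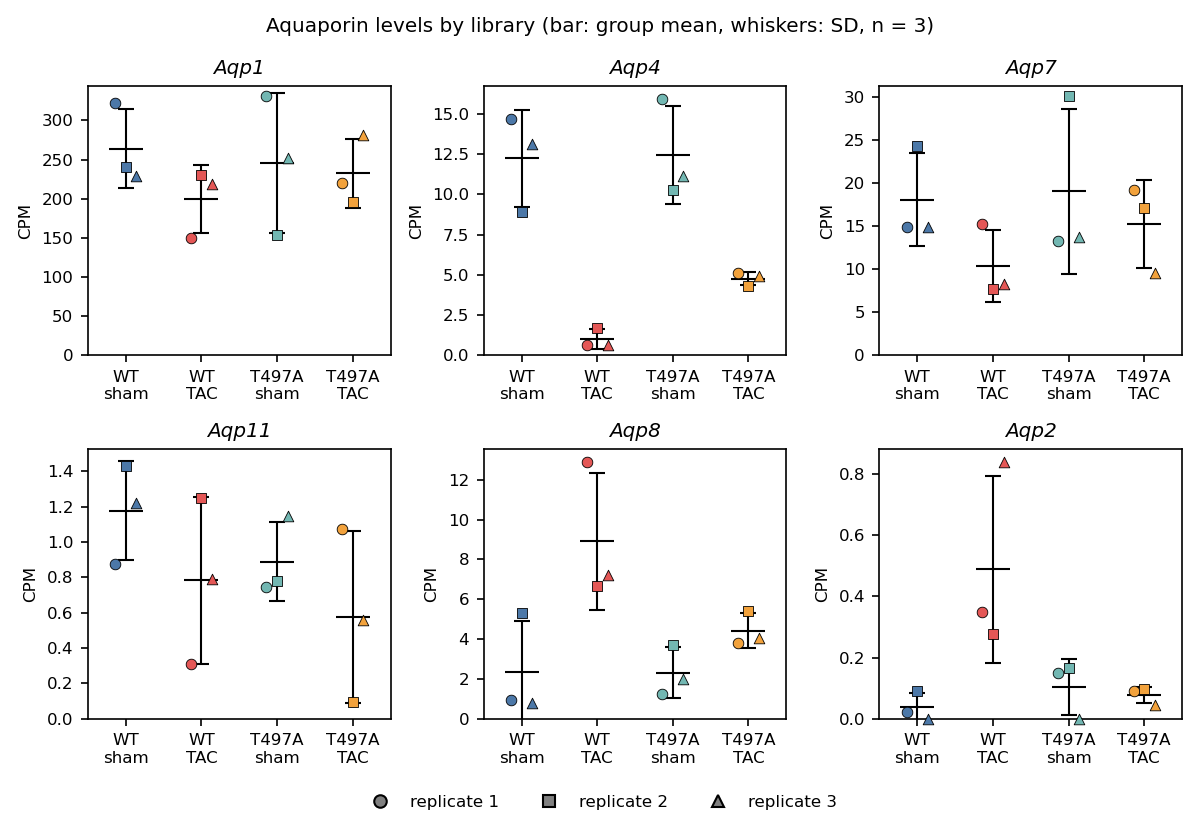
Level of each tested aquaporin in each library, in CPM on a linear axis from 0. Symbols are replicates 1 to 3, which pair nothing across groups, horizontal bars are group means and whiskers the SD (n = 3), drawn only above 0. Aqp4 falls to 0.65 to 1.71 CPM in wild type TAC and lies at 4.30 to 5.09 CPM in T497A TAC, while the groups overlap for Aqp1, Aqp7 and Aqp11.

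Behind the wild type TAC values of Aqp4 stand few reads: 30, 74 and 28 counts, against 637, 398 and 452 in wild type sham and 228, 178 and 212 in T497A TAC. In the fit Aqp4 fell by 3.60 ± 0.35 on the log2 scale after TAC in wild type, which is the 12.2-fold change it was chosen for. In T497A it was lower by a fitted 2.61-fold after TAC (log2 fold change -1.38 ± 0.31). Between the genotypes it was 4.74-fold higher in T497A after TAC (log2 fold change 2.24 ± 0.35), and the fitted difference after sham was 0.03 ± 0.29. The interaction, which is the change after TAC in T497A less the change in wild type, was 2.22 ± 0.46. These contrasts share their libraries with those on which Aqp4 was chosen. As a share of the family's summed per-length level, Aqp4 made up 1.35 to 2.21% in wild type sham, 0.114 to 0.288% in wild type TAC, 1.72 to 2.25% in T497A sham and 0.692 to 0.866% in T497A TAC.

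The 3 wild type TAC libraries were not alike in Aqp4, and the highest of them, replicate 2 with 1.71 CPM, also had the most Myh4 of all libraries, 15.61 CPM. Myh4 measured 1.23 and 0.19 CPM in wild type TAC replicates 1 and 3. It measured 9.56, 5.23 and 0.06 CPM in wild type sham, and the T497A libraries measured 10.60, 10.73 and 0.75 CPM after sham, with 0.85, 0.05 and 0.05 after TAC. The sham library with the least Myh4, wild type sham replicate 3, had 13.13 CPM of Aqp4, within the range of the other sham libraries. Without wild type TAC replicate 2 the fitted change of Aqp4 in wild type was -4.22, the difference between the genotypes after TAC 2.86 and the interaction 2.83. With all 6 libraries above 1 CPM of Myh4 left out, these values were -4.33, 2.86 and 3.11. That setting leaves 1 library in 3 of the groups, so the lone libraries are taken to vary as T497A TAC does.

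Of the 13 fast skeletal muscle markers 11 were tested, and in wild type TAC 2 were called higher, Mybpc2 and Myl1, and none lower, where 12.3% of all tested genes were called higher. The tested genes ran from -0.86 to 1.36 in log2 fold change. The summed level of the list, to which Mybpc2 and Myl1 contribute most, was 79.1 to 88.3 CPM in wild type sham, 157 to 204 in wild type TAC, 70.4 to 114 in T497A sham and 72.4 to 132 in T497A TAC. Actn3, the alpha-actinin of fast fibres, was at 0 counts in wild type TAC replicate 3 and in T497A TAC replicate 3, and at 2.82 CPM in wild type TAC replicate 2, its highest value. Among the 6 libraries with less than 1 CPM of Myh4, Aqp4 measured 13.13 CPM in the wild type sham library, 11.13 in the T497A sham library, 4.30 to 5.09 in T497A TAC and 0.65 in the wild type TAC library. There 3 of the groups hold 1 library. The part of skeletal muscle tissue in the Aqp4 levels was not tested.

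**Figure D2:**
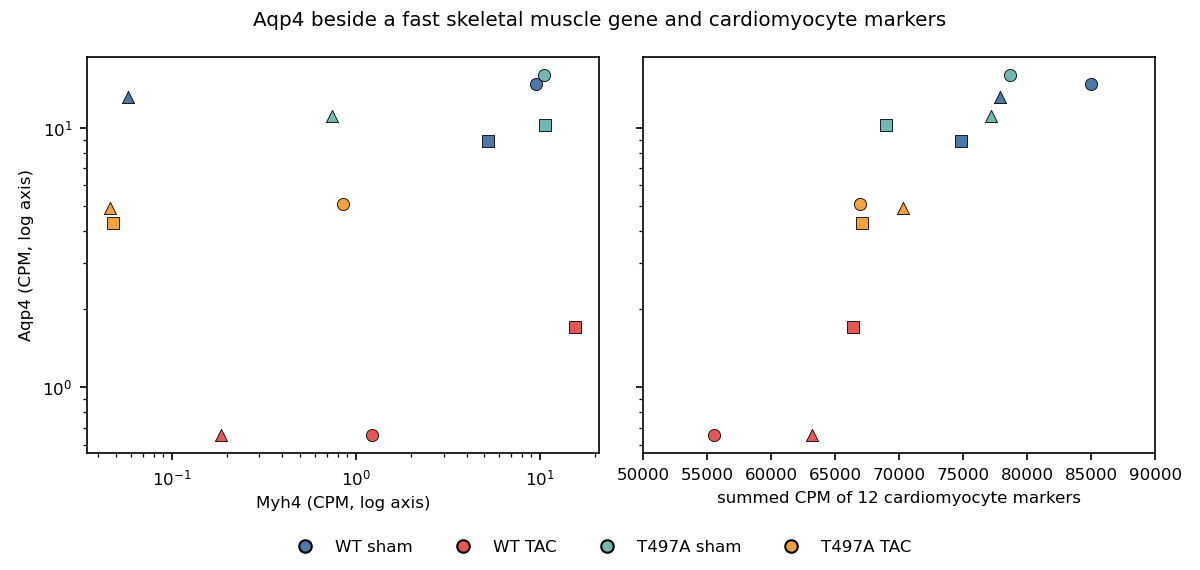
Aqp4 level (CPM, log axis) in each library against Myh4 (CPM, log axis, left) and against the summed CPM of the 12 cardiomyocyte markers (linear axis that does not start at 0, right). Colours are the 4 groups and symbols the replicates 1 to 3. Wild type TAC lies lowest for Aqp4 from 0.19 to 15.61 CPM of Myh4, and has the lowest cardiomyocyte sums, 55545 to 66379 CPM.

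The cardiomyocyte marker list had a lower median after TAC in wild type, with a smaller change than Aqp4, which was chosen for its fall. Of the 12 genes, 7 were called lower in wild type TAC, where 12.6% of all tested genes were. The 12 genes ran from -0.86 to 0.19 in log2 fold change, with a list median of -0.35. Their summed level was 74813 to 84953 CPM in wild type sham, 55545 to 66379 in wild type TAC, 68954 to 78678 in T497A sham and 66948 to 70312 in T497A TAC. Fibroblast markers were called higher for 5 of 9 genes in wild type TAC, where 12.3% of all tested genes were. Their sums were 1994 to 2118 CPM in wild type sham and 3567 to 4003 in TAC. Macrophage markers were called higher for 7 of 9 genes, against the same 12.3%, with sums of 184 to 213 CPM in wild type sham and 289 to 367 in TAC. The part of these cell types in the lower level of Aqp4 was not tested. Astrocytes are the best known source of Aqp4 in the brain. Of the 5 listed astrocyte genes Slc1a3 averaged 3.26 CPM, Aldh1l1 3.00, Slc1a2 1.17 and Gfap 0.0655, and Gjb6 was at 0 in all 12 libraries. The sum was 4.91 to 8.96 CPM in wild type sham and 7.90 to 11.3 in TAC. Of the 3 tested, 2 were called higher in wild type TAC, where 12.3% of all tested genes were. The 3 genes went in both directions, from -1.32 to 1.99 in log2 fold change. Of the 6 tested Schwann cell and nerve genes 2 were called lower, where 12.6% of all tested genes were. These 6 also went in both directions, from -1.09 to 0.84. The list's sums were 14.9 to 23.3 CPM in wild type sham and 12.3 to 13.4 in TAC.

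Aqp7, the glycerol channel, did not differ between groups by the test. In wild type sham it measured 14.94, 24.26 and 14.90 CPM, and in wild type TAC 15.21, 7.74 and 8.27. The T497A sham libraries measured 13.21, 30.04 and 13.77 CPM, and in T497A TAC 19.21, 17.13 and 9.52. Replicate 2 stood above the others in both sham groups, and wild type TAC overlapped with sham through its replicate 1. The means ran from 19.0 ± 9.56 CPM (SD, n = 3) in T497A sham through 18.0 ± 5.40 in wild type sham and 15.3 ± 5.10 in T497A TAC to 10.4 ± 4.17 in wild type TAC. No neighbours in this order differed beyond their SD. The fitted log2 fold change after TAC was -0.79 ± 0.43 in wild type (edgeR adjusted p = 0.223) and -0.31 ± 0.43 in T497A (edgeR adjusted p = 0.845). T497A against wild type gave 0.07 ± 0.43 after sham (edgeR adjusted p = 1) and 0.55 ± 0.43 after TAC (edgeR adjusted p = 0.495), with an interaction of 0.48 ± 0.61 (edgeR adjusted p = 0.756).

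Fat cells are the best known site of Aqp7, and their markers were scarce. Of the 8 adipocyte markers 4 were tested and none was called in wild type TAC, where 25% of all tested genes were. The sum of all 8 lay between 0.132 and 3.43 CPM over the 12 libraries, below the level of Aqp7 in each of them. Adiponectin, Adipoq, was between 0 and 0.46 CPM and at 0 in 2 libraries.

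Aqp11, the channel of intracellular membranes, was near the lower limit of what could be tested. It measured 0.88, 1.43 and 1.22 CPM in wild type sham and 0.31, 1.25 and 0.79 in wild type TAC. The T497A sham libraries measured 0.75, 0.78 and 1.14 CPM, and in T497A TAC 1.07, 0.10 and 0.56. The groups overlapped in all 4 comparisons, and T497A TAC replicate 2 stood lowest with 4 counts. The fitted log2 fold change after TAC was -0.59 ± 0.61 in wild type (edgeR adjusted p = 0.528) and -0.62 ± 0.63 in T497A (edgeR adjusted p = 0.773). The genotype differences were -0.40 ± 0.61 after sham (edgeR adjusted p = 1) and -0.43 ± 0.63 after TAC (edgeR adjusted p = 0.738), and the interaction was -0.03 ± 0.86 (edgeR adjusted p = 0.989). At these counts differences about as large as the standard errors were not called, and larger ones could also be missed.

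Of Aqp1, Aqp7 and Aqp11, the 3 members open to a test, none was called in any comparison. The shares of the 15764 tested genes that were called were 25% in wild type TAC against sham (12.3% higher and 12.6% lower), 0.114% in T497A TAC against sham, 0.0254% between the genotypes after sham, 8.7% between them after TAC (4.64% higher and 4.06% lower) and 1.57% in the interaction. The libraries of the groups overlapped for these 3 members in all 4 pairwise comparisons. Over all tested genes the groups did not overlap for 42.2% in wild type TAC against sham, 15.4% in T497A TAC against sham, 8.21% between the genotypes after sham and 28% after TAC. Aqp4 was chosen on these contrasts, so nothing is read from its calls or its separation of groups.

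**Figure D3:**
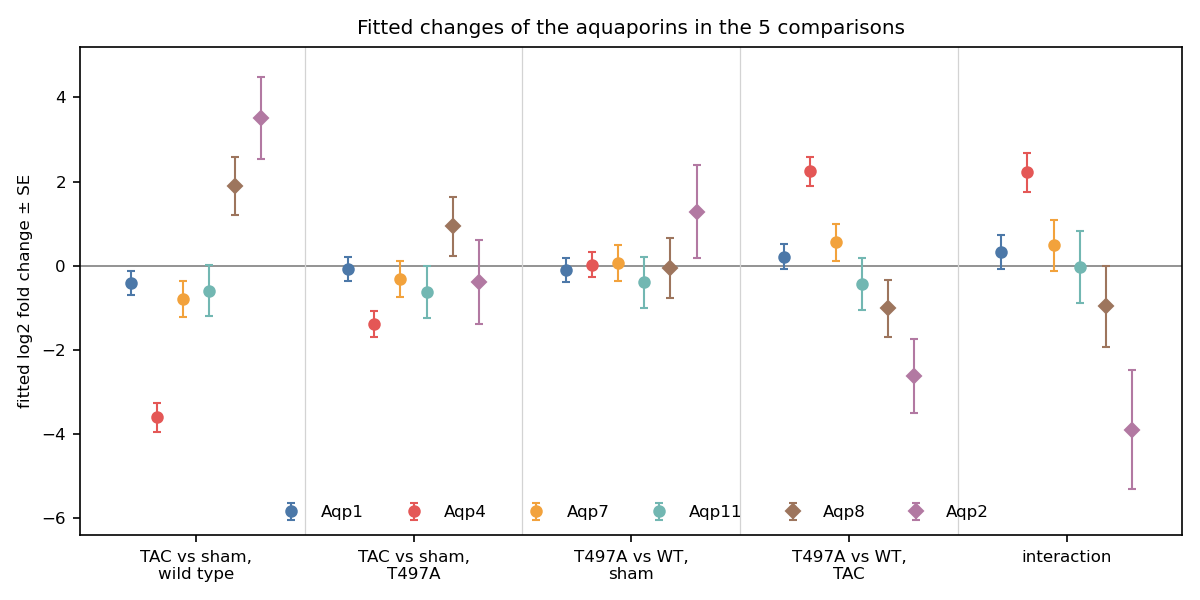
Fitted log2 fold change with its SE for the 4 members (circles) and for Aqp8 and Aqp2 (diamonds) in the 5 comparisons; the interaction is the T497A change after TAC less the wild type one. Aqp4 is at -3.60 in wild type and -1.38 in T497A after TAC, Aqp1 stays between -0.40 and 0.32 throughout, and Aqp8 and Aqp2 have wide errors.

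Aqp8 and Aqp2, the other aquaporins with enough counts, were higher in level in wild type TAC. Aqp8, which passes water, ammonia and hydrogen peroxide, measured 0.92, 5.32 and 0.81 CPM in wild type sham and 12.87, 6.65 and 7.22 in wild type TAC. The T497A libraries measured 1.24, 3.72 and 1.98 CPM after sham, with 3.79, 5.41 and 4.03 after TAC. The TAC libraries lay above the sham libraries in both genotypes without overlap, in T497A by a narrow margin, and replicate 2 was high in both sham groups. TAC and sham libraries also did not overlap for 42.2% of all tested genes in wild type and 15.4% in T497A. The fitted log2 fold change after TAC was 1.90 ± 0.69 in wild type, which the test did not call (edgeR adjusted p = 0.0767), and 0.94 ± 0.69 in T497A (edgeR adjusted p = 0.676). Without wild type sham replicate 2 it was 3.35 in wild type and called (edgeR adjusted p = 0.000841). Leaving out any 1 of the other 11 libraries gave no call in wild type (edgeR adjusted p = 0.0800 to 0.208). The wild type change was also called with all libraries by DESeq2 (adjusted p = 0.0309) and by limma-voom (adjusted p = 0.00855). After TAC, T497A against wild type gave -1.02 ± 0.67 (edgeR adjusted p = 0.410). Its share of the family's per-length sum was 0.446 to 3.19% in wild type sham and 4.41 to 11.5% in wild type TAC, above that of Aqp4 in each wild type TAC library.

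Aqp2, the vasopressin-regulated channel of the kidney collecting duct, rose after TAC in wild type at very low counts. It had 1, 4 and 0 counts in wild type sham and 16, 12 and 36 in wild type TAC, and the T497A libraries had 6, 6 and 0 after sham and 4, 4 and 2 after TAC. Its highest library held 0.84 CPM. The fitted log2 fold change was 3.52 ± 0.97 in wild type (edgeR adjusted p = 0.0165), higher in 3 of 3 libraries. This call was lost without wild type TAC replicate 3 (edgeR adjusted p = 0.0878), without wild type sham replicate 1 (0.0729) and without wild type sham replicate 3 (0.0652). It was also lost with the libraries above 1 CPM of Myh4 left out (edgeR adjusted p = 0.0942). After TAC, T497A against wild type gave -2.61 ± 0.88 (edgeR adjusted p = 0.0826).

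The members varied by different amounts among replicates. The SD of the log2 level within groups was 0.38 for Aqp1, 0.46 for Aqp4, 0.54 for Aqp7 and 0.93 for Aqp11. Aqp1 and Aqp7 varied in opposite directions: over the 12 libraries Pearson's r of their log2 levels was -0.38, and after the group means were taken out it was -0.86. T497A sham replicate 2 had the lowest Aqp1 level of the sham libraries, 153.2 CPM, and the highest Aqp7 level of all, 30.04 CPM. Aqp1 and Aqp4 had an r of 0.51, and 0.56 within groups. Aqp4 and Aqp7 had 0.48 over all libraries and -0.54 within groups. These correlations are descriptions over 12 libraries in which both genes of a pair share library and depth.

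**Figure D4:**
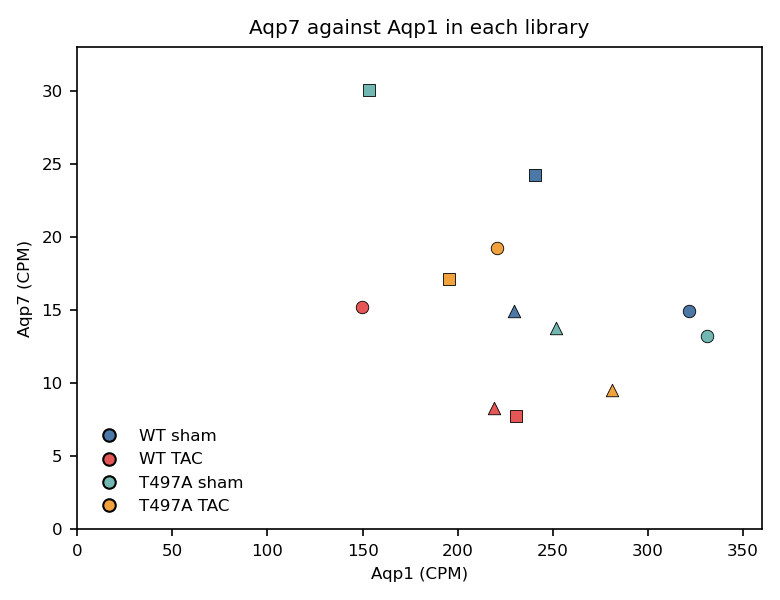
Aqp7 level against Aqp1 level in each library, both in CPM on linear axes from 0. Colours are the 4 groups and symbols the replicates 1 to 3. Within each group the library with the most Aqp7 has less Aqp1 than at least 1 other library of its group, and T497A sham replicate 2 lies at 153.2 CPM of Aqp1 and 30.04 CPM of Aqp7.

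The genes with the pattern most like each member were found by Pearson's r of log2 CPM over the 12 libraries. For Aqp4 the 5 most alike were Asb14 (r = 0.992), Dglucy (0.988), Ces1d (0.987), Idh3b (0.986) and Gstm1 (0.985). In all 5 the sham groups were highest and wild type TAC lowest, with changes of very different size. This order follows from the choice, since they were picked for likeness to Aqp4, which was chosen for its pattern. Ces1d, a carboxylesterase, averaged 109 and 115 CPM in the sham groups of wild type and T497A, 57.4 in T497A TAC and 11.1 in wild type TAC. Idh3b, a subunit of the mitochondrial isocitrate dehydrogenase, averaged 599.8 and 591 CPM in the sham groups of wild type and T497A, 519 in T497A TAC and 445 in wild type TAC.

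For the other members the r values were lower. Aqp4 was chosen for a large difference between groups, so nothing is read from this. Aqp7 was most like Grip2 (r = 0.955), Ucp3 (0.932), Slc37a2 (0.900), Tspan15 (0.891) and Lrrc20 (0.887). Ucp3, the mitochondrial uncoupling protein of muscle, averaged 35.6 and 47.7 CPM in the sham groups of wild type and T497A, 32.3 in T497A TAC and 15.3 in wild type TAC. Aqp1 was most like Tob2 (0.936), Brd1 (0.932), Ppara (0.925), Mtmr10 (0.925) and Foxo3 (0.923), and Aqp11 most like Ctdnep1 (0.890), Wdr83 (0.865), Scoc (0.852), Kcnj11 (0.837) and E2f6 (0.827). No list of 5 shared a gene with another. These r values are the highest among many genes and carry no p.

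Of the dystrophin complex and the partners that anchor Aqp4, 19 of 21 listed genes were tested. In wild type TAC 3 were called higher and 2 lower, 5 of 19 where 25% of all tested genes were called, and the list median of log2 fold changes was 0.01. The syntrophin Sntb1 rose by 0.78 ± 0.16 (edgeR adjusted p = 0.00353), the sarcoglycan Sgce by 0.50 ± 0.12 (edgeR adjusted p = 0.00806) and agrin, Agrn, a matrix ligand of dystroglycan, by 0.43 ± 0.11 (edgeR adjusted p = 0.0105). The sarcoglycan Sgca fell by 0.46 ± 0.09 (edgeR adjusted p = 0.00299). These 4 calls stayed when any 1 of the 12 libraries was left out. After TAC, T497A against wild type gave 1 gene higher, Sgca (0.49 ± 0.09, edgeR adjusted p = 0.00665), and 2 lower, Sgce and Trpv4, with a list median of 0.12. These are 3 of 19 genes, where 8.7% of all tested genes were called. Sgca was also higher in T497A after sham, by 0.31 ± 0.09, which was not called. Its interaction was 0.18 ± 0.13 (edgeR adjusted p = 0.544). Sgce was at -0.47 ± 0.12 (edgeR adjusted p = 0.0298), and this call was lost without T497A TAC replicate 1 or 3 or without any 1 of the wild type TAC libraries (edgeR adjusted p = 0.0533 to 0.116). None of the 19 was called in T497A TAC against sham, after sham between genotypes or in the interaction. Of all tested genes 0.114%, 0.0254% and 1.57% were called there.

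Of the glycerol handling genes around Aqp7, all 21 were tested. In wild type TAC 5 of 21 were called lower and none higher, where 12.6% of all tested genes were called lower and 25% in either direction, and the list median was -0.20. The mitochondrial glycerol-3-phosphate dehydrogenase Gpd2 fell by 0.60 ± 0.10 (edgeR adjusted p = 0.000756), and its call stayed without any 1 library. Dgat2, which makes triglyceride, fell by 0.88 ± 0.25 (edgeR adjusted p = 0.0283), a call lost without wild type TAC replicate 1 or 3 or wild type sham replicate 1 or 3 (edgeR adjusted p = 0.0612 to 0.0978). Plin5, a lipid droplet coat protein, fell by 0.48 ± 0.15 (edgeR adjusted p = 0.0373), a call lost without T497A sham replicate 3, wild type TAC replicate 2 or 3 or wild type sham replicate 1 or 2 (edgeR adjusted p = 0.0509 to 0.130). Lipoprotein lipase, Lpl, fell by 0.35 ± 0.10 (edgeR adjusted p = 0.0187), a call lost without wild type TAC replicate 1 or 3 or wild type sham replicate 1 (edgeR adjusted p = 0.0577 to 0.0823). In T497A TAC none was called, where 0.114% of all tested genes were, and the list median was -0.19. No gene of the list was called between the genotypes or in the interaction. Of all tested genes 0.0254% were called between the genotypes after sham, 8.7% after TAC and 1.57% in the interaction.

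**Figure D5:**
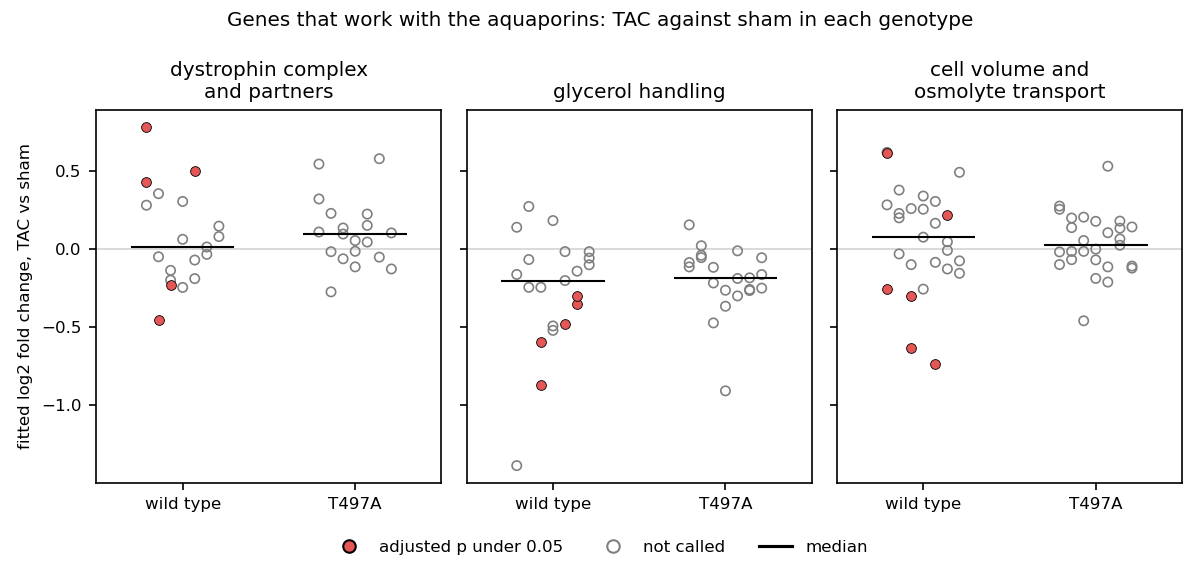
Fitted log2 fold change, TAC against sham, of the tested genes of 3 lists in wild type and in T497A. Each circle is a gene, filled where the edgeR adjusted p was under 0.05, and horizontal lines are list medians. In wild type 5 genes of the first list, 5 of the second and 6 of the third are filled, and in T497A none is. Of all tested genes 25% were called in wild type and 0.114% in T497A.

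Of the genes of cell volume and osmolyte transport, 27 of 28 were tested. In wild type TAC 2 were called higher and 4 lower, 6 of 27 where 25% of all tested genes were called, with a list median of 0.07. None was called in T497A TAC, where 0.114% of all tested genes were. The chloride-proton exchanger Clcn3 fell by 0.74 ± 0.08 (edgeR adjusted p = 4.2e-05), a call that stayed without any 1 library. The sodium-potassium-chloride cotransporter Slc12a2 fell by 0.30 ± 0.09 (edgeR adjusted p = 0.0204), a call lost without wild type TAC replicate 2 or 3 or wild type sham replicate 3 (edgeR adjusted p = 0.0596 to 0.0863). The taurine transporter Slc6a6 rose by 0.62 ± 0.17 (edgeR adjusted p = 0.0200), a call lost without wild type TAC replicate 2 or 3 or wild type sham replicate 1 (edgeR adjusted p = 0.0530 to 0.0764).

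After TAC, T497A against wild type gave 2 genes of cell volume higher and 3 lower, 5 of 27 where 8.7% of all tested genes were called, with a list median of -0.01. Clcn3 was at 0.42 ± 0.08 (edgeR adjusted p = 0.00730), a call that stayed without any 1 library. Slc12a2 was at 0.36 ± 0.09 (edgeR adjusted p = 0.0201), Slc6a6 at -0.63 ± 0.17 (edgeR adjusted p = 0.0399) and Trpv4, a cation channel opened by cell swelling, at -0.60 ± 0.16 (edgeR adjusted p = 0.0366). These 3 calls were each lost without T497A TAC replicate 1, T497A TAC replicate 3, wild type TAC replicate 2 or wild type TAC replicate 3 (edgeR adjusted p = 0.0622 to 0.143 in those settings). That of Trpv4 was lost also without wild type TAC replicate 1, and that of Slc6a6 also without replicate 2 or 3 of either sham group (edgeR adjusted p from 0.0501). In the interaction 1 of 27 genes of the list was called, Clcn3 (0.53 ± 0.12, edgeR adjusted p = 0.0420), where 1.57% of all tested genes were. This call was lost without any 1 of 10 of the 12 libraries (edgeR adjusted p = 0.0527 to 0.112). The 2 libraries whose removal kept it were T497A sham replicate 1 and T497A TAC replicate 2.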

How the data were processed

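RNA of 12 left ventricle libraries was measured, and groups were taken from the sample labels. The authors deposited whole-number read counts per gene, not normalized, as the values themselves show. The submitters' processing notes list mm10 as the build and name limma 3.50.3, featureCounts, STAR 2.7.3a, Trim Galore 0.6.4 and Subread 1.6.3. How and in what order they were run, whether strand was used and how reads with several matches were treated is not given in the sources used here. Genes kept by filterByExpr (15764 of 55401, minimum count 10) went into edgeR 4.0.16 (R 4.3.3) with TMM factors, robust glmQLFit over all 4 groups, glmQLFTest, and Benjamini-Hochberg adjustment over all tested genes, with calls at an adjusted p under 0.05. The script was tested on simulated data. Replicates of a group differed by a chi-square per degree of freedom of 21.3 to 57.5, so none was a copy. Numbers of replicates follow accession order, since the titles all carry 1 number, and pair nothing. Alternatives were DESeq2 1.42.0, limma-voom (limma 3.58.1), RLE and upper-quartile factors, mitochondrial genes left out, no filter, only the groups compared, each library left out in turn, and libraries above 1 CPM of Myh4 left out. Exon lengths and positions come from GENCODE on GRCm38, to which 15751 tested genes matched. Named were all aquaporins, up to 4 called genes per list with the largest change in wild type TAC and a mean of at least 1 CPM, list genes called in another comparison, and the 5 tested genes most like each member (mean of at least 5 CPM, prior count 2, no predicted genes). The members and lists were chosen with earlier results of these data known. Some genes that this rule names are not reported here.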

Additional observations from a re-analysis of the deposited data

Results flagged for a closer look

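The TAC effect on Aqp4 differed between the genotypes by a fitted 2.22 ± 0.46 on the log2 scale, and this interaction is part of what Aqp4 was chosen for, so it is a description. The TAC effect on Clcn3 differed between the genotypes by 0.53 ± 0.12 (edgeR's test of the interaction, adjusted p = 0.0420). Clcn3 was the 1 called gene of 27 tested in its list, where 1.57% of all tested genes were called. Its call was lost when any 1 of 10 of the 12 libraries was left out.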

How the results depend on the processing

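The values of Aqp1, Aqp7 and Aqp11 gave no call under any of 297 alternative values (lowest adjusted p 0.122). No called value changed sign. Values that were not called did, among them Aqp7 after TAC in T497A (up to 0.15 with the Myh4 setting below and 0.18 without T497A sham replicate 2), Aqp7 between the genotypes after sham (down to -0.42 without the same library), the Aqp1 interaction (down to -0.05), Aqp11 between the genotypes after TAC (up to 0.08) and, at very low counts, Aqp2 after TAC in T497A (up to 4.75). Leaving out 1 library in turn, the fitted change of Aqp4 ranged from -4.22 to -3.37 after TAC in wild type, from 2.01 to 2.86 between the genotypes after TAC and from 1.99 to 2.83 in the interaction. With libraries above 1 CPM of Myh4 left out these were -4.33, 2.86 and 3.11; the lone libraries of 3 groups are there taken to vary as T497A TAC does. Calls in the gene lists are not compared in that setting, because 3 of its groups hold 1 library. After TAC between the genotypes, fitting only the groups compared gave 1 call in the dystrophin complex list (3 in the main analysis) and 1 in the volume list (5). The glycerol list had 2 calls between the genotypes (0 in the main analysis) with DESeq2 and without the filter. With 1 library left out, the wild type TAC calls ranged from 4 to 5, 1 to 6 and 2 to 8 in the dystrophin complex, glycerol and volume lists. The main analysis had 5, 5 and 6. The genotype calls after TAC ranged from 1 to 3, 0 to 1 and 1 to 6. The share of all tested genes called in these settings is not given, so nothing particular to the lists is read from the counts. Only the groups compared gives no interaction. No paired analysis was possible because the replicate numbers were given in accession order. Low counts limit Aqp2, Aqp11 and the Aqp4 level in wild type TAC.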
